A study of Mus musculus with 9 samples.

Results

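The genes described here encode the heat shock proteins and the DNAJ co-chaperones, 72 of the 23361 genes in the deposited table. They were taken by symbol: every gene whose name begins with Hspa, Hspb, Hspd, Hspe, Hsph, Dnaja, Dnajb or Dnajc and a number, together with the Hsp90a and Hsp90b genes. They comprised 14 genes of the Hsp70 and Hsp110 proteins, 3 of Hsp90, 8 of the small heat shock proteins, 2 of the mitochondrial chaperonin, and 4, 13 and 28 of the Dnaja, Dnajb and Dnajc classes. Of these, 65 had enough fragments to be tested. The other 7, Dnajb7, Dnajb8, Dnajb13, Dnajc5b, Dnajc5g, Dnajc22 and Hspb3, reached at most 10 fragments in any library, and Dnajb8 and Dnajc5b had 0 in all 9.

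Poly(A)-selected RNA was sequenced from flow-sorted cells of mouse skin. The labels call them melanocyte stem cells, a population that is kept in the hair follicle and gives rise to new pigment cells. The 9 libraries formed the groups UVB, Active and Quiescent, with 3 libraries each, and all came from mice of 10 weeks whose genotype is labelled TBPT, a name that the labels do not spell out. UVB stands for the medium-wave part of ultraviolet light. A single treatment text, which names depilation with a chemical and UVB irradiation as alternatives, stands with every sample, and it does not tell in which group depilation was used. The labels do not say that the libraries of a group came from separate animals, and p-values measure only the spread between these libraries.

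Chaperones bind proteins that are unfolded or being folded and keep them from aggregating. Hsp70 proteins do so in a cycle driven by ATP, in which a J-domain protein of the DNAJ classes delivers the client and speeds the splitting of ATP, and a nucleotide exchange factor such as an Hsp110 protein releases it again. A few members are induced strongly by heat or other stress through the transcription factor HSF1, others are made at all times, and separate members serve the endoplasmic reticulum (ER) and the mitochondria.

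Levels within a gene are given below as CPM, counts relative to the library total after TMM scaling, in the order of the replicate numbers. Levels of different genes are set side by side only as the authors' FPKM, fragments relative to transcript length and library size. Differences are log2 fold changes with their standard error (SE), and adjusted p is the Benjamini-Hochberg value over the 15078 genes tested with edgeR (quasi-likelihood F test). A gene is called higher or lower where adjusted p was under 0.05. Both comparisons with Quiescent use the same 3 Quiescent libraries.

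The labels were checked against marker genes. A list of 10 melanocyte lineage markers summed to 922 to 1152 CPM in UVB, 7879 to 12735 CPM in Active and 87.3 to 229 CPM in Quiescent. A list of 8 dermal fibroblast markers summed to 22011 to 34436 CPM in UVB, 4825 to 6139 CPM in Active and 335838 to 454359 CPM in Quiescent. The Quiescent libraries thus carried little of the RNA that defines the labelled lineage and much that defines fibroblasts. UVB libraries in turn carried more fibroblast and less melanocyte marker RNA than Active libraries. Each comparison below therefore sets unlike mixtures of RNA side by side, and the part of this in the fold changes was not tested. In sorted bulk samples, fewer cells of a type and less RNA per cell cannot be told apart. The 8 myeloid markers summed to 1621 to 2811 CPM in UVB, 70.7 to 165 CPM in Active, and 370, 2751 and 170 CPM in Quiescent, so Quiescent replicate 2 stood apart in these. The 8 keratinocyte markers summed to 262 to 664 CPM in UVB, 761 to 1249.8 CPM in Active, and 2081, 606 and 128 CPM in Quiescent, where replicate 1 was the highest and replicate 3 the lowest. Each marker of the lists named here had fragments in every group. Xist had 23353 to 30356 fragments in the UVB libraries and 4 to 12 in all others. Transcripts from the Y chromosome went the opposite way, with sums of 0 to 2 fragments in UVB and 4106 to 5591 in all others. By these transcripts the UVB libraries read as female, and the Active and Quiescent libraries as male. Sex thus cannot be separated from group in UVB against Quiescent or in UVB against Active. Its part in the fold changes was not tested.

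Promoter sequences were available for 58 of the 72 genes in the RefSeq table of build GRCm38.p6, which has the coordinates of mm10. In the window from 250 bases before to 50 bases after a gene's start, the letters GAANNTTC or TTCNNGAA, 2 units of the heat shock element to which HSF1 binds, were found for 16 members and for 15.7% of all 16344 genes with a promoter. These letters were searched on both strands, and overlapping matches were allowed. The run of 3 units, in which GAA, TTC and GAA (or TTC, GAA and TTC) stand with any 2 bases between them, was found for Dnajb6, Hspd1, Hspe1 and Hsph1, and for 0.667% of all genes. The matches of Hspd1 and Hspe1, counted for each gene, are the same stretch of DNA read on opposite strands. The ER stress response element, CCAAT and CCACG set 9 bases apart, was found for Dnajc3, Hsp90b1 and Hspa5, and for 0.147% of all genes. A match describes the letters of the window and does not show that a factor was bound.

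The promoters of 5 genes with a heat shock element, and of the 3 with the ER element, are printed because results below turn on these genes. Each is the stretch of 250 bases before the start, on the gene's own strand, and capitals mark the heat shock element of 2 units. Hspa1a lies at chr17:34972157-34972406 on the minus strand, Hspa1b at chr17:34959239-34959488 on the minus strand, Hsph1 at chr5:149636337-149636586 on the minus strand, Hspb1 at chr5:135887669-135887918 on the plus strand and Hspe1 at chr1:55087898-55088147 on the plus strand.
Hspa1a: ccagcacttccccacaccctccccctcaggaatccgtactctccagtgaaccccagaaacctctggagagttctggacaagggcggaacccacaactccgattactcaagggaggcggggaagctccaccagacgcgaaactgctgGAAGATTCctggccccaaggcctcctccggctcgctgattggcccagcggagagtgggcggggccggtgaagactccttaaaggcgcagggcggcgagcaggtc
Hspa1b: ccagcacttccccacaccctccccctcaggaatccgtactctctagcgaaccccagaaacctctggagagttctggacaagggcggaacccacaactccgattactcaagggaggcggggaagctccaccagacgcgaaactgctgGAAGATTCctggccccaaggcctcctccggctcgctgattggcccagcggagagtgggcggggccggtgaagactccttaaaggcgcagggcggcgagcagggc
Hsph1: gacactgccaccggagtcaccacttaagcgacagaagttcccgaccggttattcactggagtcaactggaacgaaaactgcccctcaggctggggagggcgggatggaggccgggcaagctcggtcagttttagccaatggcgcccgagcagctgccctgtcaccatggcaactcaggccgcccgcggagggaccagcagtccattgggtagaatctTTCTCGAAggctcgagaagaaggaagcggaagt
Hspb1: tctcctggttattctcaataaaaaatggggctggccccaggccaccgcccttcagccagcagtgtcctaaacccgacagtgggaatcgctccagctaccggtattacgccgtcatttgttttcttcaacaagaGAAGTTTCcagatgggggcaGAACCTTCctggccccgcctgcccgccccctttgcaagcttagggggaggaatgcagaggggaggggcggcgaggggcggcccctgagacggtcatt
Hspe1: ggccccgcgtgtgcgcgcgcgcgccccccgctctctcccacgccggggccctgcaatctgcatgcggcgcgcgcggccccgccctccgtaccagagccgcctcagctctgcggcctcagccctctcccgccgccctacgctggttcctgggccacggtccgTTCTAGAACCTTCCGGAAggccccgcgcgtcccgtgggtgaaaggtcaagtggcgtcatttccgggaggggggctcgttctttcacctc
The first pair, Hspa1a and Hspa1b, differed at 3 of 250 bases (98.8% identity). Hspe1 had 3 overlapping matches in a row, and Hspb1 had 2 separate matches. The run of 3 units in Hsph1 lay after the start, past the stretch shown.

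In the promoters with the ER stress response element, capitals mark that element. Hspa5 lies at chr2:34771840-34772089 on the plus strand, Hsp90b1 at chr10:86705445-86705694 on the minus strand and Dnajc3 at chr14:118937682-118937931 on the plus strand.
Hspa5: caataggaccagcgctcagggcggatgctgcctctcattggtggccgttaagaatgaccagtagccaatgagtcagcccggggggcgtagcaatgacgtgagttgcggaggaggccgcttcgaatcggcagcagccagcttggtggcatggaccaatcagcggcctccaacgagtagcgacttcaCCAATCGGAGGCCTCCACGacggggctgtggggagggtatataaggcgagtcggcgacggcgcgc
Hsp90b1: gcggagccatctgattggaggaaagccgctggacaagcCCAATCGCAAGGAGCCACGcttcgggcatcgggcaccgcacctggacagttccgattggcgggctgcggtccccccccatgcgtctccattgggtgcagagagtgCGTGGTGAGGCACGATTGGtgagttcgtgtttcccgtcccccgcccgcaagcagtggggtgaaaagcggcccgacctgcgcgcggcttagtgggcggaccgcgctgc
Dnajc3: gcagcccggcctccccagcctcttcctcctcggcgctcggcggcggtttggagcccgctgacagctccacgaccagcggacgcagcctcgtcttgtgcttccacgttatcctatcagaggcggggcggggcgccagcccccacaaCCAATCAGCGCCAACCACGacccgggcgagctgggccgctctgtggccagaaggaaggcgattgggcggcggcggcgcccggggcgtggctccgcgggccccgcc
Hsp90b1 had 2 matches, 1 of them on the opposite strand.

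The first question was which chaperone genes differ between the cells of each group. For UVB against Quiescent, 10 members were called higher and 19 lower, 44.6% of the 65 tested, where 49.0% of all genes tested were called, 25.8% higher and 23.2% lower. For Active against Quiescent, 13 were higher and 14 lower, 41.5% of the members, against 58.3% of all genes, 29.1% higher and 29.2% lower. For UVB against Active, 0 were higher and 6 lower, 9.23% of the members, against 24.0% of all genes, 14.8% higher and 9.19% lower.

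By direction, 15.4% of the tested members were higher and 29.2% lower in UVB against Quiescent, and 20% and 21.5% in Active against Quiescent. The differences between these shares and those of all genes were not tested. The median log2 fold change of the members was -0.12 for UVB against Quiescent, 0.03 for Active against Quiescent and -0.13 for UVB against Active, beside 0.02, 0.01 and 0.01 over all genes tested. Beside the 0 members called higher in UVB against Active, 4 were higher at an unadjusted p under 0.05, and DESeq2 and limma on log2(FPKM + 1) each called 1. With library size alone in place of TMM, the median of all genes moved to 0.74 and 0.76 in the comparisons with Quiescent, and the counts became 37 higher and 5 lower for UVB and 39 and 5 for Active. The sign then changed for 6 called members in UVB (Dnajb6, Dnajc3, Dnajc18, Dnajc21, Hspb11 and Hspe1) and for 3 in Active (Dnajb6, Dnajb14 and Dnajc4).

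Over the 3 comparisons, 29 of the 65 members (44.6%) passed in none, against 30.5% of all genes tested. Libraries of the 2 groups did not overlap for 34 members in UVB against Quiescent, 35 in Active against Quiescent and 30 in UVB against Active. Of all genes, 57.6%, 66.2% and 46.7% did not overlap in these comparisons.

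**Figure D1:**
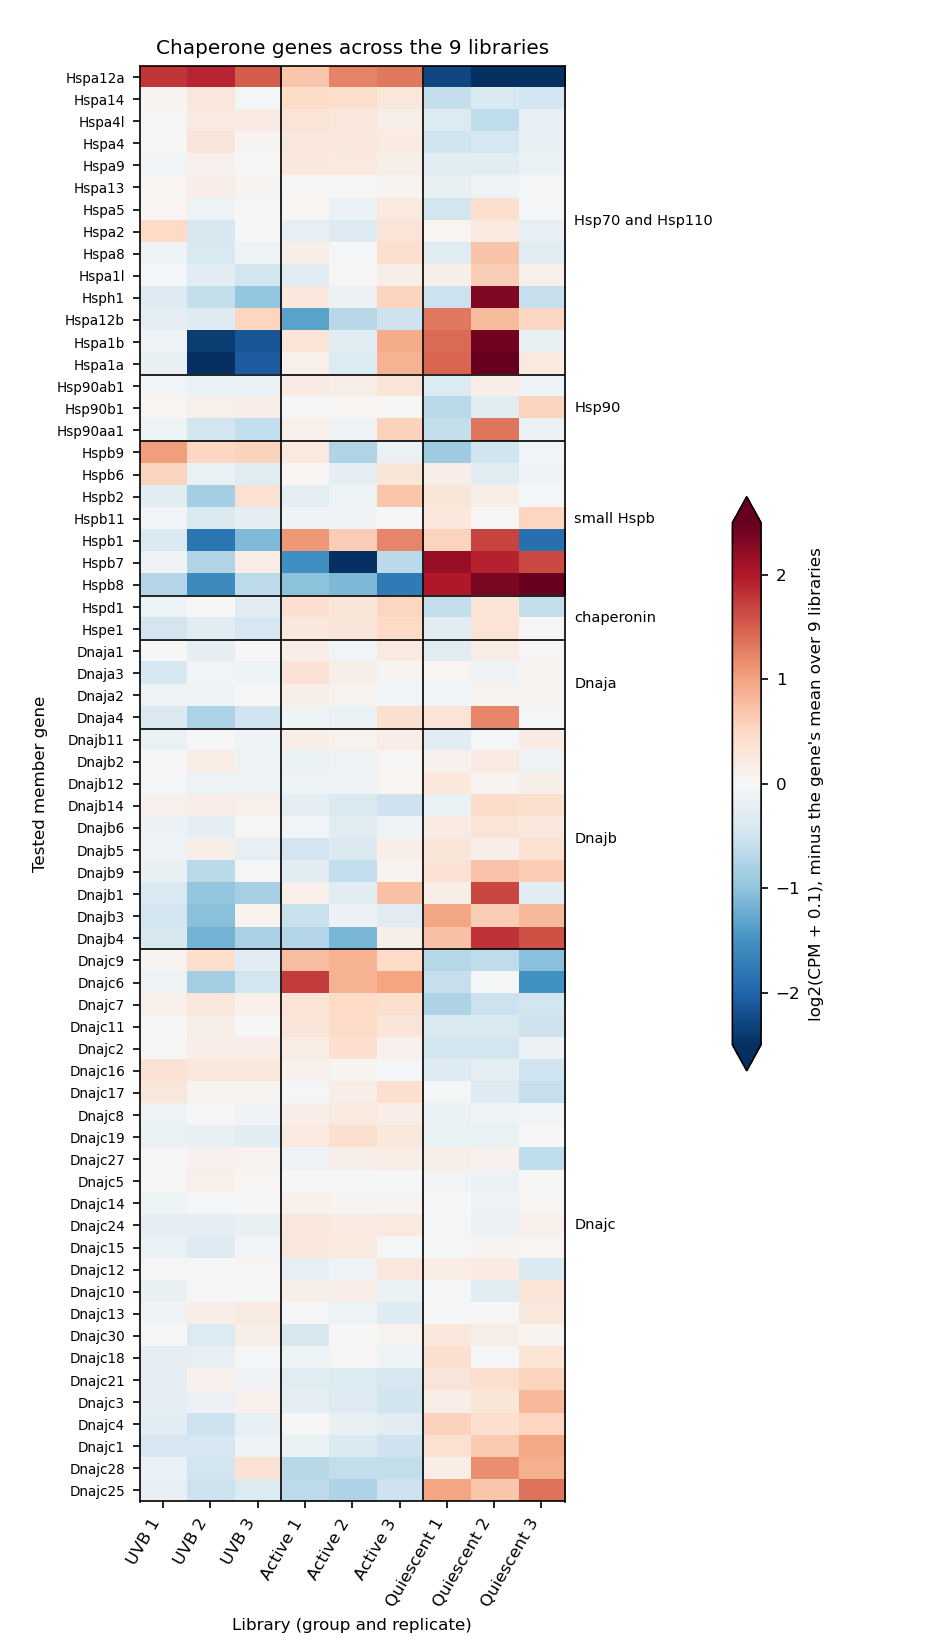
Level of each of the 65 tested chaperone genes (down the page, by family) in the 9 libraries (across), as log2(CPM + 0.1) minus the gene's mean over all libraries. Hspa12a is low and Hspb8 high in all 3 Quiescent libraries, while Hspa1a, Hspa1b and Hsph1 are highest in Quiescent replicate 2.

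Per transcript length, Hspa8, Hsp90ab1, Hspa5 and Hsp90b1 made up 57.4% of the summed FPKM of all members in UVB, 51.4% in Active and 43.6% in Quiescent, as means over the libraries. Hspa8, the Hsp70 that cells make at all times, led in UVB with 800 ± 61.2 FPKM, in Active with 1062 ± 164 FPKM and in Quiescent with 1020 ± 432 FPKM (SD, n = 3 each). Hsp90ab1, the Hsp90 made at all times in the cytosol, had 535 ± 23.6 FPKM in UVB, 698 ± 29.1 FPKM in Active and 562 ± 97.1 FPKM in Quiescent. Hspa5 and Hsp90b1, the Hsp70 and Hsp90 of the ER, followed in UVB and Active with means between 367 and 428 FPKM.

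In Quiescent, the stress-inducible Hsp70 genes stood between them: Hspa1b had 618 ± 462 FPKM and Hspa1a 566 ± 402 FPKM. In UVB they had 91.7 ± 83.5 and 74.4 ± 68.4 FPKM, and in Active 277 ± 109 and 217 ± 92.7 FPKM. Hspa8 made up 21.6% of the summed FPKM of all members in UVB, 21.3% in Active and 18.2% in Quiescent. None of Hspa8, Hsp90ab1, Hspa5 and Hsp90b1 was called in any comparison.

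**Figure D2:**
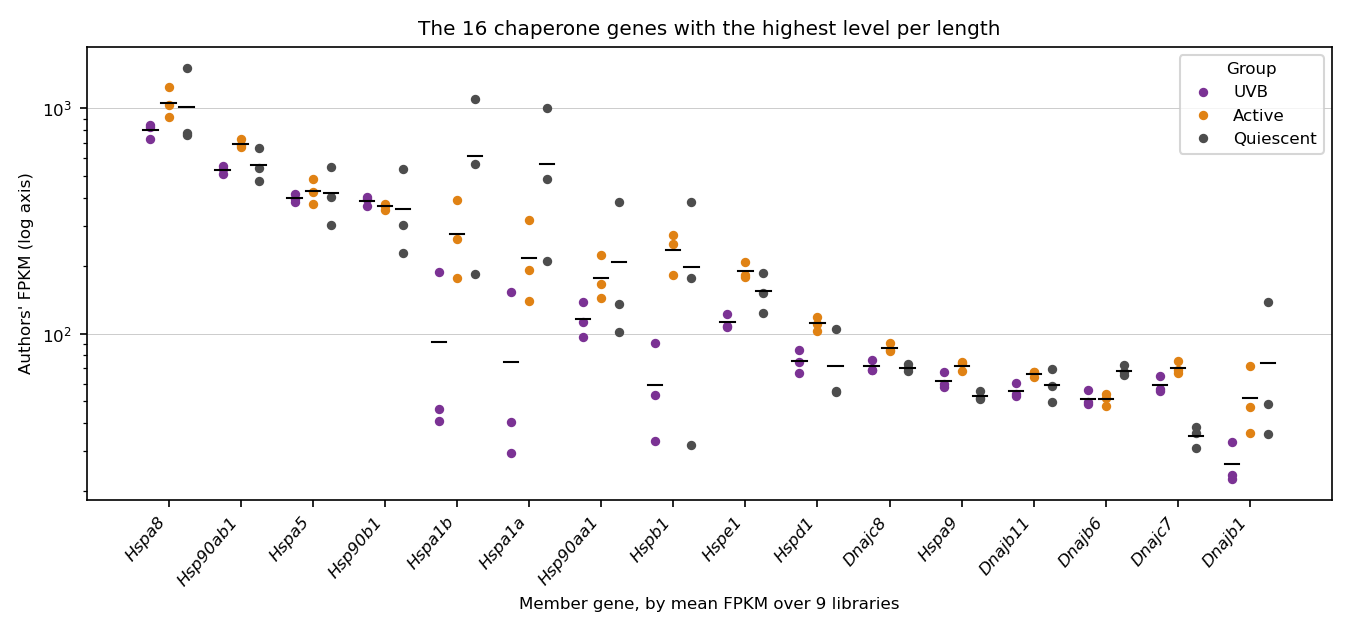
The authors' FPKM (log axis) of the 16 chaperone genes with the highest mean over 9 libraries, 1 point per library and a bar at the group mean, for UVB, Active and Quiescent. Hspa8 leads in each group, and among the genes plotted the Quiescent points of Hspb1, Hspa1b, Hspa1a, Dnajb1 and Hsp90aa1 are spread the widest.

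Hspa1a and Hspa1b, which encode nearly the same heat-inducible Hsp70, were lower in UVB than in Quiescent. Hspa1a had 420, 79.0 and 113 CPM in UVB, 519, 377 and 876 CPM in Active, and 1312, 2725 and 563 CPM in Quiescent. Every UVB library was below every Quiescent library, whereas Active overlapped both other groups. The log2 fold change for UVB against Quiescent was -2.91 ± 0.77 (SE), or 7.51-fold lower, with edgeR adjusted p = 0.013. Active against Quiescent gave -1.38 ± 0.73 (adjusted p = 0.13) and UVB against Active -1.53 ± 0.73 (adjusted p = 0.16).

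Hspa1b had 519, 110 and 130 CPM in UVB, 714, 477 and 1081 CPM in Active, and 1524, 3018 and 498 CPM in Quiescent. UVB replicate 1 lay above Quiescent replicate 3, so these groups overlapped. The log2 fold change for UVB against Quiescent was -2.73 ± 0.78 (edgeR adjusted p = 0.018). Fragments from 1 of the copies may have been assigned to the other, and the share of each is uncertain. The ratio of Hspa1b to Hspa1a stayed between 0.885 and 1.39 in the 9 libraries. Their sum was 939, 189 and 243 CPM in UVB, 1233, 854 and 1957 CPM in Active, and 2835, 5743 and 1060 CPM in Quiescent.

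Both genes depended on single libraries in size. Without UVB replicate 1 the difference from Quiescent grew to -3.99 for Hspa1a (adjusted p = 0.0045) and -3.81 for Hspa1b (adjusted p = 0.0068). Without Quiescent replicate 2 it was -2.20 for Hspa1a (adjusted p = 0.038), and Hspa1b missed the threshold with -2.0 (adjusted p = 0.057). Hspa1b also missed it without UVB replicate 2 (-2.37, adjusted p = 0.059) and without UVB replicate 3 (-2.42, adjusted p = 0.053). Against Active, Hspa1a was called lower without UVB replicate 1 (-2.62, adjusted p = 0.045).

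**Figure D3:**
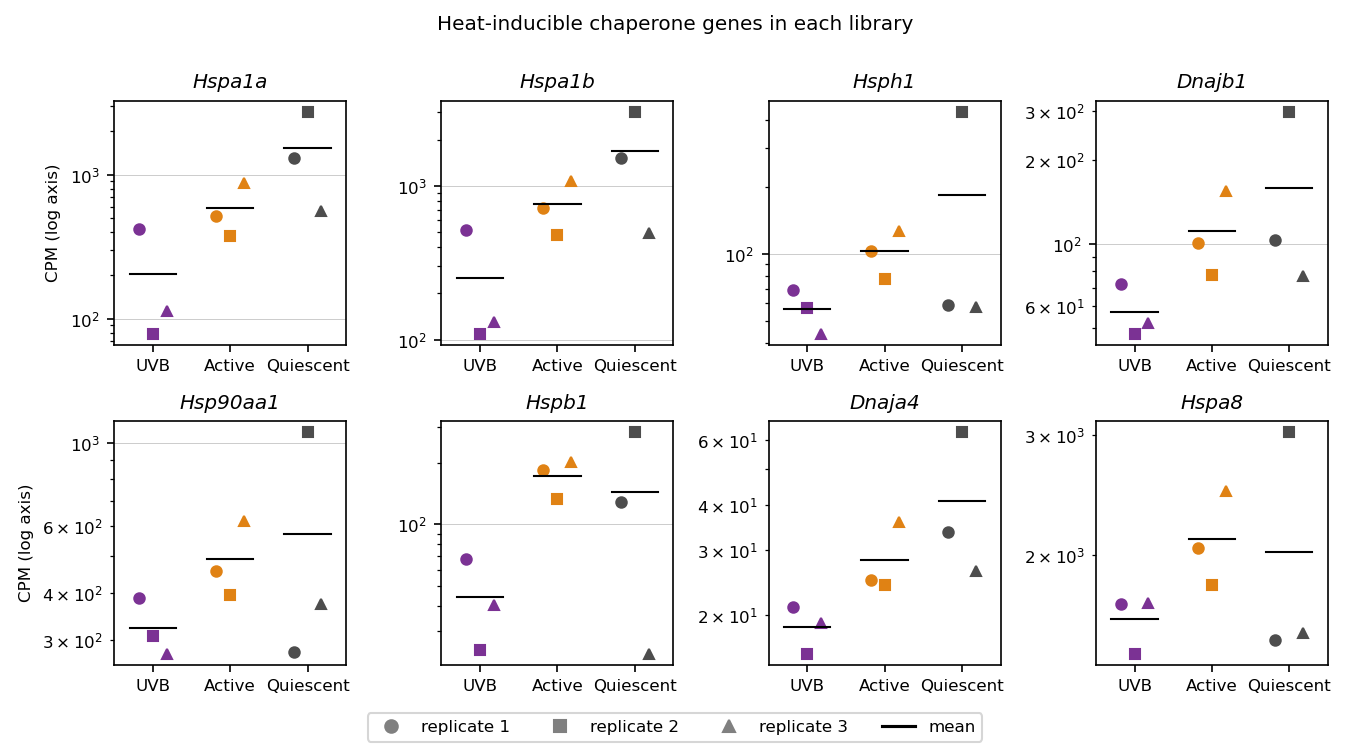
CPM (log axis, each panel its own range) of 8 chaperone genes in UVB, Active and Quiescent, with a marker shape for each replicate number and a bar at the mean. Quiescent replicate 2 is the highest Quiescent library in all 8 panels, for example 434 CPM for Hsph1 where the other Quiescent libraries had 59.0 and 57.7 CPM. The genes shown are the tested members with the highest ratio of Quiescent replicate 2 to the mean of the other Quiescent libraries. That all panels share this library thus follows from the genes shown. Among members not shown, the ratio was 1.37 for Hspe1, 1.23 for Dnaja1, 1.07 for Dnajb6 and 0.714 for Dnajc25.

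Hsph1, Dnajb1, Dnaja4, Hsp90aa1 and Hspb1 were also highest in Quiescent replicate 2, as were Hspa8, Dnajb2, Dnajb4 and Dnajb6. Some other members that work with Hsp70 were highest elsewhere. Among them were Dnaja1 in Active replicate 3, Dnaja2 and Hspa4l in Active replicate 1 and Hspa4 in UVB replicate 2. Hsph1, an Hsp110 that exchanges nucleotides on Hsp70, had 68.7, 57.2 and 43.9 CPM in UVB, 103, 77.4 and 127 CPM in Active, and 59.0, 434 and 57.7 CPM in Quiescent. A single Quiescent library lay far above the rest, and the other Quiescent libraries lay within the range of UVB. Hsph1 was called in no comparison with all 9 libraries: UVB against Quiescent gave -1.70 ± 0.72 (edgeR adjusted p = 0.081) and Active against Quiescent -0.84 ± 0.71 (adjusted p = 0.34).

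For Hsph1 the direction turned with that library. Without Quiescent replicate 2, Active was 1.76-fold higher than Quiescent (log2 fold change 0.82, adjusted p = 0.023), and UVB was lower than Active (-0.86, adjusted p = 0.024). UVB against Quiescent was then -0.04 (adjusted p = 0.89). Without Quiescent replicate 1 or 3, UVB was called lower than Quiescent (-2.12 each, adjusted p = 0.036 and 0.032).

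Dnajb1, the main inducible J-domain partner of Hsp70, had 71.9, 47.9 and 52.2 CPM in UVB, 102, 77.6 and 156 CPM in Active, and 104, 298 and 76.9 CPM in Quiescent. All UVB libraries lay below all others. It was 2.78-fold lower in UVB than in Quiescent (log2 fold change -1.48 ± 0.49, edgeR adjusted p = 0.034). The call was lost without Quiescent replicate 2 (-0.66, adjusted p = 0.11) and without UVB replicate 1, 2 or 3 (-1.67, -1.36 and -1.41, adjusted p = 0.055, 0.10 and 0.081). Against Active it was not called (-0.96 ± 0.48, adjusted p = 0.18), but passed without Quiescent replicate 2 (adjusted p = 0.038).

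Dnaja4, a cytosolic J-domain protein of class A, had 21, 15.6 and 19 CPM in UVB, 24.8, 24.0 and 35.7 CPM in Active, and 33.7, 63.1 and 26.3 CPM in Quiescent. Here too UVB lay below both other groups in every library. It was lower in UVB than in Quiescent (-1.14 ± 0.32, edgeR adjusted p = 0.016). Without UVB replicate 2 the adjusted p was 0.057, and without Quiescent replicate 2 the difference was -0.69.

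Hsp90aa1, the inducible cytosolic Hsp90, had 386, 307 and 275 CPM in UVB, 457, 393 and 621 CPM in Active, and 277, 1068 and 373 CPM in Quiescent. Apart from Quiescent replicate 2, the Quiescent libraries overlapped UVB. It was called in no comparison, with log2 fold changes of -0.83 ± 0.45 for UVB and -0.22 ± 0.45 for Active against Quiescent (edgeR adjusted p = 0.16 and 0.69). Without Quiescent replicate 2 these were -0.01 for UVB (adjusted p = 0.98) and, with the sign turned, 0.60 for Active (adjusted p = 0.073).

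Hspb1, the small heat shock protein Hsp25 of the mouse, which holds unfolded proteins and binds actin, had 67.3, 24.2 and 40.4 CPM in UVB, 184, 132 and 202 CPM in Active, and 128, 281 and 23.3 CPM in Quiescent. UVB lay below Active in every library, and Quiescent spread over the range of both. UVB against Active gave -1.97 ± 0.73 (edgeR adjusted p = 0.082). It passed without Quiescent replicate 2 (-1.98, adjusted p = 0.047) and without Quiescent replicate 3 (-1.98, adjusted p = 0.013). UVB against Quiescent gave -1.71 ± 0.73 (adjusted p = 0.080). It was -0.79 without Quiescent replicate 2 (adjusted p = 0.35) and -2.22 without Quiescent replicate 3 (adjusted p = 0.0059). Active against Quiescent gave 0.26 ± 0.71 (adjusted p = 0.77), with 1.19 and -0.24 in these fits. The sums of the keratinocyte markers ranked the libraries as Hspb1 did in UVB, but not in Active or Quiescent. The part of keratinocyte RNA was not tested. Hspa8 itself had 1694, 1431 and 1698 CPM in UVB, 2048, 1806 and 2486 CPM in Active, and 1500, 3028 and 1537 CPM in Quiescent, again with 1 high Quiescent library.

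Across the family, Quiescent replicate 2 was the highest of the 9 libraries for 16 of the 65 members (24.6%), compared with 12.1% of all genes tested. Its level was 7.44 times the mean of the other Quiescent libraries for Hsph1, 3.71 times for Hspb1, 3.30 times for Dnajb1, 3.29 times for Hsp90aa1 and 1.99 times for Hspa8. For Hspa5 the ratio was 1.57, for Hspa9 0.967. Of the 14 tested members with a heat shock element of 2 units, printed above for 5 of them, 7 were highest in that library. The same held for 7 of the 39 other tested members with a promoter in the table, among them Dnajb1, whose window held no match. Hsp90aa1 and Hspa8, also highest in that library, had no promoter in the table and are in neither count. The difference between these counts was not tested, and it was not set beside all genes with the element.

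The same library stood highest in a list of 17 immediate early genes, which respond within minutes to stimuli such as tissue handling. They summed to 8754, 4572 and 7389 CPM in UVB, 2850, 2441 and 7644 CPM in Active, and 10821, 15782 and 11416 CPM in Quiescent. The highest library of each group was thus UVB replicate 1, Active replicate 3 and Quiescent replicate 2. For 12 of the 65 members (18.5%) the highest library of each group was the same, compared with 4.98% of all genes tested. These were Dnaja4, Dnajb1, Dnajb4, Hsp90aa1, Hsp90ab1, Hspa1a, Hspa1b, Hspa1l, Hspa2, Hspa5, Hspb1 and Hsph1. The part of cell handling and of the myeloid RNA of Quiescent replicate 2 in these values was not tested.

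Hspa12a was far higher in both UVB and Active than in Quiescent. This distant Hsp70 relative, at chr19:58795750-58943654, had 117, 127 and 97.7 CPM in UVB, 55.3, 80.8 and 85.4 CPM in Active, and 6.96, 4.65 and 3.25 CPM in Quiescent. All Quiescent libraries lay far below all others. UVB was 22.7-fold higher than Quiescent (4.50 ± 0.30, edgeR adjusted p = 1.5e-05) and Active 14.7-fold higher (3.88 ± 0.29, adjusted p = 1.4e-05). UVB and Active did not overlap either, but missed the threshold (0.62 ± 0.25, adjusted p = 0.11).

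Hspa12b, the close relative known from endothelial cells, ran the other way. It had 15.4, 14.6 and 26.5 CPM in UVB, 7.23, 11.2 and 12.7 CPM in Active, and 45.5, 31.6 and 26.2 CPM in Quiescent. Active lay below both other groups, and UVB replicate 3 reached just into Quiescent. It was lower in Active than in Quiescent (-1.73 ± 0.32, edgeR adjusted p = 0.0016) and lower in UVB (-0.87 ± 0.31, adjusted p = 0.045). The UVB call was lost when any 1 of Quiescent replicates 1 and 2, UVB replicates 1 and 2 and Active replicate 2 was left out, with -0.62 and adjusted p = 0.16 without Quiescent replicate 1. The 8 endothelial markers summed to 182 to 306 CPM in UVB, 23.3 to 28.1 CPM in Active and 366 to 531 CPM in Quiescent, in the same order, and their part was not tested.

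The Hsp110 proteins other than Hsph1 were moderately higher in both groups. Hspa4 had 154, 194 and 163 CPM in UVB, 187, 190 and 179 CPM in Active, and 111, 116 and 136 CPM in Quiescent, with Quiescent below every other library. The log2 fold changes were 0.49 ± 0.12 for UVB and 0.62 ± 0.12 for Active (edgeR adjusted p = 0.0094 and 0.0024). Hspa4l, its close homologue, gave 0.52 ± 0.15 and 0.65 ± 0.15 (adjusted p = 0.020 and 0.0058). The UVB call of Hspa4l was lost without Quiescent replicate 2 (adjusted p = 0.055) and without UVB replicate 2 (adjusted p = 0.063).

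Hspa14 and Dnajc2, which together form the ribosome-associated complex that meets new polypeptides, were higher in both groups. Hspa14 had 57.0, 65.9 and 52.8 CPM in UVB, 74.9, 73.7 and 66.2 CPM in Active, and 36.0, 41.8 and 39.0 CPM in Quiescent. It differed from Quiescent by 0.59 ± 0.11 in UVB and 0.88 ± 0.11 in Active (edgeR adjusted p = 0.0028 and 2.1e-04). Dnajc2 gave 0.47 ± 0.13 and 0.59 ± 0.13 (adjusted p = 0.015 and 0.0037), and the UVB call was lost without Quiescent replicate 1 (adjusted p = 0.053).

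Hspa9, Dnajc11 and Dnajc19, which act in mitochondria, were higher in Active than in Quiescent, whereas Hspd1 and Hspe1 of the mitochondrial chaperonin were not called. These genes were named singly, Dnajc11 and Dnajc19 for their calls, and no full list of mitochondrial members was drawn up. Other Dnajc genes, such as Dnajc4 and Dnajc28, were lower in Active. Whether these also act in mitochondria was not looked up, so the genes named do not stand for all mitochondrial members. Hspa9, the Hsp70 of the mitochondrial matrix, had 174, 198 and 182 CPM in UVB, 221, 217 and 203 CPM in Active, and 153, 153 and 163 CPM in Quiescent. The 3 groups did not overlap, and Active against Quiescent gave 0.45 ± 0.09 (edgeR adjusted p = 0.0031), while UVB against Quiescent missed the threshold (0.24 ± 0.09, adjusted p = 0.062).

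Hspe1, the lid of the mitochondrial chaperonin, had 63.8, 71.4 and 65.7 CPM in UVB, 105, 107 and 124 CPM in Active, and 72.6, 111 and 89.0 CPM in Quiescent. UVB was the lowest group in every library, and Active and Quiescent overlapped. UVB was lower than Active by -0.74 ± 0.15 (edgeR adjusted p = 0.011), and of the 6 members called there it was the single member that stayed called without each library in turn. UVB against Quiescent gave -0.44 ± 0.15 (adjusted p = 0.040), a call that 7 of the 9 fits without a library lost, with the highest adjusted p of 0.12.

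Hspd1, which forms the barrel that Hspe1 closes, had 169, 185 and 153 CPM in UVB, 246, 228 and 267 CPM in Active, and 121, 235 and 122 CPM in Quiescent. Active lay above UVB in every library. With all libraries no comparison passed. Active against Quiescent gave 0.63 ± 0.24 (edgeR adjusted p = 0.051) and UVB against Active -0.55 ± 0.24 (adjusted p = 0.14). Without Quiescent replicate 2 these became 1.02 (adjusted p = 4.1e-04) and -0.55 (adjusted p = 0.012), and UVB against Quiescent 0.47 (adjusted p = 0.018). The genes share exon sequence on opposite strands, so their counts are uncertain where strand was not used.

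Dnajc19, which stimulates mitochondrial Hsp70 at the import channel, had 20.3, 20.0 and 18.9 CPM in UVB, 27.1, 30.1 and 27.4 CPM in Active, and 20.3, 20.2 and 22.7 CPM in Quiescent. It was higher in Active than in Quiescent (0.42 ± 0.11, edgeR adjusted p = 0.0091) and lower in UVB than in Active (-0.52 ± 0.11, adjusted p = 0.012), a call that 1 of the 9 fits without a library lost (adjusted p = 0.059). Dnajc11, a protein of the mitochondrial membrane contacts, was higher in both groups, by 0.48 ± 0.10 in UVB and 0.79 ± 0.10 in Active (adjusted p = 0.0041 and 2.0e-04).

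Dnajb9, Dnajc1 and Dnajc3, which are J-domain proteins of the ER, were lower in both groups than in Quiescent. They were named singly with their calls known, and no full list of ER members was drawn up. Other Dnajc genes, such as Dnajc16, were higher in both groups. Whether these also serve the ER was not looked up, so the genes named do not stand for all ER members. Dnajb9, a J-domain protein of the ER lumen that partners Hspa5, had 38.0, 27.1 and 42.2 CPM in UVB, 35.9, 28.2 and 45.9 CPM in Active, and 55.7, 71.1 and 66.9 CPM in Quiescent. It was lower in both groups, by -0.85 ± 0.22 in UVB and -0.82 ± 0.22 in Active (edgeR adjusted p = 0.011 and 0.010). Dnajc1, a J-domain protein of the ER membrane, had 49.6, 49.5 and 61.4 CPM in UVB, 59.0, 51.8 and 46.4 CPM in Active, and 86.6, 105 and 131 CPM in Quiescent. It was 2.01-fold lower in UVB and 2.05-fold lower in Active (adjusted p = 0.0014 and 8.1e-04).

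Dnajc3, an ER co-chaperone that was also described as an inhibitor of the kinase PERK, had 140, 149 and 182 CPM in UVB, 142, 132 and 117 CPM in Active, and 187, 205 and 295 CPM in Quiescent. It was lower in UVB (-0.54 ± 0.19, edgeR adjusted p = 0.037) and in Active (-0.82 ± 0.19, adjusted p = 0.0049), and 5 of the 9 fits without a library lost the UVB call, with -0.32 without Quiescent replicate 3. Hspa5, Hsp90b1, Dnajb11 and Dnajc10 were called in no comparison.

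Hsp90b1 had 1000, 1060 and 1086 CPM in UVB, 948, 997 and 995 CPM in Active, and 604, 813 and 1424 CPM in Quiescent. The UVB and Active libraries lay close together, and the Quiescent libraries spread on both sides of them. Without Quiescent replicate 3, Hsp90b1 was higher than Quiescent in UVB (0.57, adjusted p = 0.017) and in Active (0.47, adjusted p = 0.028). The genes whose promoters carry the ER stress element, printed above, were not all highest in the same library. Hspa5 was highest in Quiescent replicate 2, and Hsp90b1 and Dnajc3 were both highest in Quiescent replicate 3.

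Of the 7 tested genes of small heat shock proteins, 3 were lower and 1 higher in UVB against Quiescent, and 2 lower and 0 higher in Active against Quiescent, beside the shares of all genes given above. Hspb8 at chr5:116408491-116422864, which acts with Bag3 in sending misfolded proteins to autophagy, had 19.2, 10.5 and 20.1 CPM in UVB, 15.6, 14.6 and 9.28 CPM in Active, and 127, 163 and 186 CPM in Quiescent. All Quiescent libraries lay far above all others. It was 9.55-fold lower in UVB (-3.26 ± 0.30, edgeR adjusted p = 6.6e-05) and 12-fold lower in Active (-3.59 ± 0.31, adjusted p = 2.3e-05). Bag3, looked up after its values were seen, had 125, 82.5 and 74.9 CPM in UVB, 70.9, 63.5 and 137 CPM in Active, and 121, 363 and 92.7 CPM in Quiescent, and was not called (adjusted p = 0.13 and 0.10).

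Hspb7, a small heat shock protein of heart and skeletal muscle, had few fragments: 19, 10 and 22 in UVB, 5, 0 and 9 in Active, and 84, 46 and 38 in Quiescent. It was lower in UVB (-2.29 ± 0.72, edgeR adjusted p = 0.027) and in Active (-3.98 ± 0.81, adjusted p = 0.0026), and the UVB call was lost without Quiescent replicate 1, UVB replicate 1 or UVB replicate 2 (adjusted p = 0.068, 0.076 and 0.088). The Active value stayed called in all 9 fits without a library and ran from -4.98 without Active replicate 3 to -3.40 without Active replicate 2. The 8 smooth muscle and pericyte markers summed to 189 to 327 CPM in UVB, 209 to 262 CPM in Active and 880 to 1211 CPM in Quiescent. The 8 skeletal muscle markers summed to 3.97 to 13.4 CPM in UVB, 2.72 to 3.68 CPM in Active and 24.2 to 58.4 CPM in Quiescent. Their part in the level of Hspb7 was not tested.

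Hspb9, known from the testis, was the single small heat shock gene called higher, on 28, 17 and 18 fragments in UVB, 15, 5 and 8 in Active, and 4, 4 and 6 in Quiescent. UVB against Quiescent gave 1.48 ± 0.52 (edgeR adjusted p = 0.040), and 6 of the 9 fits without a library lost the call (highest adjusted p = 0.13). Hspb11, which despite its name is a part of the transport system in cilia, was lower in UVB (-0.52 ± 0.18, adjusted p = 0.038), and 8 of the 9 fits lost that call. Hspb2 and Hspb6, both known from muscle, were called in no comparison.

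**Figure D4:**
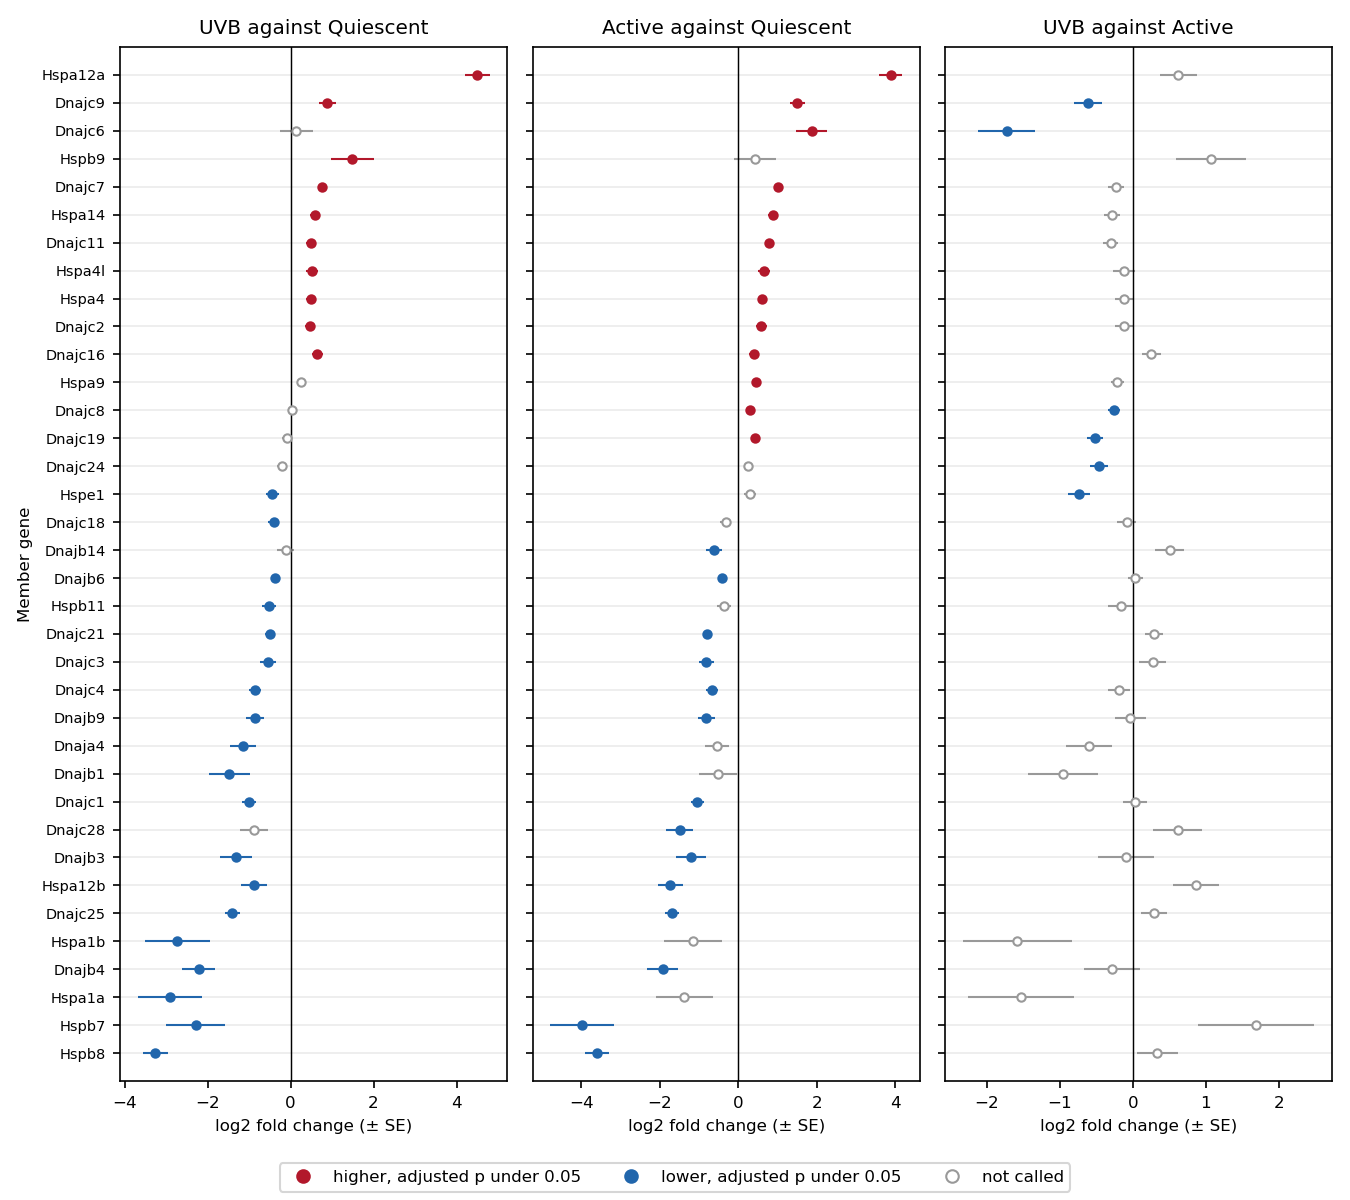
Log2 fold change with its SE (bars) for the 36 chaperone genes called in at least 1 comparison, in UVB against Quiescent, Active against Quiescent and UVB against Active, each panel on its own scale. Filled points passed an adjusted p of 0.05, and in UVB and Active against Quiescent Hspa12a lies at 4.50 and 3.88, Hspb8 at -3.26 and -3.59 and Hspb7 at -2.29 and -3.98.

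Among the Dnajb genes, 5 of 10 tested were lower and 0 higher in each comparison with Quiescent, where 23.2% of all genes were lower and 25.8% higher for UVB, and 29.2% and 29.1% for Active. Dnajb4 at chr3:152178511-152210302, a cytosolic Hsp70 partner related to Dnajb1, had 52.7, 30.4 and 39.5 CPM in UVB, 41.7, 31.2 and 77.1 CPM in Active, and 116, 243 and 209 CPM in Quiescent. Quiescent lay above every other library. The difference was -2.21 ± 0.40 in UVB and -1.92 ± 0.39 in Active (edgeR adjusted p = 0.0019 and 0.0027). Dnajb6, which keeps polyglutamine proteins from aggregating, was lower by -0.37 ± 0.10 in UVB and -0.40 ± 0.10 in Active (adjusted p = 0.014 and 0.0073). The UVB call of Dnajb6 was lost without UVB replicate 1 (adjusted p = 0.055) and without UVB replicate 2 (adjusted p = 0.052).

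Dnajb3 was also lower in both groups on under 60 fragments per library (-1.31 ± 0.38 in UVB and -1.21 ± 0.38 in Active, edgeR adjusted p = 0.021 and 0.024). In the fits without 1 library its adjusted p reached 0.069 in UVB and 0.082 in Active. Dnajb14, a J-domain protein of the ER membrane, was lower in Active than in Quiescent (-0.62 ± 0.20, adjusted p = 0.024), and 4 of the 9 fits without a library lost the call.

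The Dnajc genes went both ways, as did all genes tested. In UVB against Quiescent 5 of 25 tested were higher (20%) and 6 lower (24%), beside 25.8% and 23.2% of all genes. In Active against Quiescent 8 were higher (32%) and 6 lower (24%), beside 29.1% and 29.2% of all genes. Dnajc7, which carries clients between Hsp70 and Hsp90, had 127, 141 and 126 CPM in UVB, 147, 164 and 154 CPM in Active, and 67.8, 79.9 and 84.0 CPM in Quiescent. The 3 groups did not overlap. It was 1.70-fold higher in UVB and 2.01-fold higher in Active than in Quiescent (edgeR adjusted p = 5.8e-04 and 8.1e-05). Dnajc7 shares exon sequence with Cnp on the opposite strand, which averaged 237 CPM in UVB, 352 CPM in Active and 43.4 CPM in Quiescent, and without strand their reads cannot be told apart.

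Dnajc9, a chaperone of histones H3 and H4, had 46.9, 61.3 and 37.3 CPM in UVB, 77.0, 82.2 and 63.7 CPM in Active, and 27.5, 29.1 and 21.9 CPM in Quiescent. Active was the highest group and Quiescent the lowest, with no overlap. It rose by 0.89 ± 0.20 in UVB and 1.51 ± 0.20 in Active against Quiescent (edgeR adjusted p = 0.0055 and 2.4e-04). UVB was lower than Active by -0.62 ± 0.19 (adjusted p = 0.049), a call that 7 of the 9 fits without a library lost (highest adjusted p = 0.16).

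Dnajc6, known as auxilin, which strips clathrin from vesicles, had 7.34, 4.38 and 5.81 CPM in UVB, 27.4, 14.8 and 16 CPM in Active, and 5.40, 7.75 and 2.78 CPM in Quiescent. Active stood above both other groups, which overlapped. It was 3.66-fold higher in Active than in Quiescent (1.87 ± 0.40, edgeR adjusted p = 0.0034) and 3.32-fold lower in UVB than in Active (-1.73 ± 0.39, adjusted p = 0.016). Without Active replicate 1 the second difference was -1.40 (adjusted p = 0.059).

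Dnajc25 had 18.6, 14.8 and 17.0 CPM in UVB, 13.8, 12.5 and 15 CPM in Active, and 43.1, 35.2 and 55.4 CPM in Quiescent, with Quiescent above every other library. It was 2.65-fold lower in UVB and 3.23-fold lower in Active (edgeR adjusted p = 3.4e-04 and 7.7e-05). Dnajc21, a factor in the maturation of the large ribosomal subunit, was lower by -0.50 ± 0.12 and -0.79 ± 0.12 (adjusted p = 0.0098 and 6.7e-04), and Dnajc4 by -0.85 ± 0.15 and -0.67 ± 0.15 (adjusted p = 0.0018 and 0.0047). Dnajc16 was higher by 0.65 ± 0.13 in UVB and 0.40 ± 0.13 in Active (adjusted p = 0.0039 and 0.029), and 4 of the 9 fits without a library lost the Active call.

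Dnajc28 had 2.27, 1.82 and 3.31 CPM in UVB, 1.56, 1.63 and 1.64 CPM in Active, and 2.89, 5.84 and 4.84 CPM in Quiescent. Active lay below both other groups in every library. Active against Quiescent was called lower (-1.49 ± 0.34, edgeR adjusted p = 0.0052), and the call held in all 9 fits without a library. UVB against Quiescent gave -0.87 (adjusted p = 0.058), and passed without Quiescent replicate 1 (-1.11, adjusted p = 0.023) and without UVB replicate 3 (-1.14, adjusted p = 0.030).

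Dnajc8, a spliceosome-associated protein, was higher in Active than in Quiescent by 0.30 ± 0.08 (edgeR adjusted p = 0.012) and lower in UVB than in Active by -0.26 ± 0.08 (adjusted p = 0.047), and 8 of the 9 fits lost the second call. Dnajc24, an enzyme partner in diphthamide synthesis, was lower in UVB than in Active by -0.47 ± 0.12 (adjusted p = 0.027), and 6 of the 9 fits lost that call. Dnajc18 was lower in UVB than in Quiescent (-0.41 ± 0.13, adjusted p = 0.033), a call that 5 of the 9 fits lost. None of Dnaja1, Dnaja2 and Dnaja3 was called in any comparison.

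Counted over the fits that leave out 1 library in turn, 15 of the 29 calls for UVB against Quiescent held in each fit, as did 24 of the 27 for Active against Quiescent and 1 of the 6 for UVB against Active. Among the called members 0 changed sign, and among the members not called 16, 14 and 12 did so in at least 1 fit. Within groups, the highest library exceeded the lowest by more than 2 times for 6 members in UVB (9.23%), 6 in Active (9.23%) and 14 in Quiescent (21.5%), where 22%, 16.2% and 23.8% of all genes did so.

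Lists of chaperone partners outside these symbols were read against the same shares of all genes called. Of 14 subunits of TRiC, the cytosolic chaperonin for actin and tubulin, and of prefoldin, which hands clients to it, 9 were higher and 1 lower in UVB against Quiescent. In Active 11 were higher and 0 lower. The medians were 0.47 and 0.81, beside 0.02 and 0.01 over all genes. The lower gene was the prefoldin subunit Pfdn5 (-0.68, adjusted p = 0.0066), named after its values were seen. Cct6a had 94.8, 114 and 101 CPM in UVB, 139, 145 and 130 CPM in Active, and 58.7, 51.7 and 67.1 CPM in Quiescent, with no overlap between groups. For UVB against Active, 0 were higher and 6 lower, with a median of -0.37, among them Pfdn1 (-0.64, edgeR adjusted p = 0.013) and Cct5 (-0.41, adjusted p = 0.023).

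Of 30 heat shock factors, nucleotide exchange factors and Hsp70 or Hsp90 co-chaperones, 7 were higher and 6 lower in UVB against Quiescent, 10 and 3 in Active against Quiescent, and 1 and 11 in UVB against Active, with medians of -0.18, 0.12 and -0.30. The gene higher in UVB than in Active was Fkbp5, an Hsp90 co-chaperone induced by glucocorticoids (0.58, edgeR adjusted p = 0.021), and Hsf2 was among the 3 lower in Active than in Quiescent (-0.31, adjusted p = 0.037). Both were named after their values were seen. Fkbp4, an Hsp90 co-chaperone of steroid receptors, had 86.2, 115 and 100 CPM in UVB, 169, 163 and 146 CPM in Active, and 50.3, 42.5 and 52.6 CPM in Quiescent. It was lower in UVB than in Active (-0.66, edgeR adjusted p = 0.010) and higher in both than in Quiescent (1.05 and 1.71, adjusted p = 3.4e-04 and 1.8e-05). Stip1, which links Hsp70 to Hsp90, was higher in Active than in Quiescent by 1.38 (adjusted p = 5.2e-05). Serpinh1, the collagen chaperone of the ER, was lower by -1.79 in UVB and -1.28 in Active (adjusted p = 5.8e-04 and 0.0022), beside the fibroblast markers given above. Hsf1, looked up after its values were seen, had 23.4 to 29.2 CPM in every library and was called in no comparison.

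Of 25 other ER chaperone and unfolded protein response genes, 1 was higher and 9 lower in UVB against Quiescent, 3 and 9 in Active against Quiescent, and 2 and 0 in UVB against Active, with medians of -0.17, -0.08 and -0.13. Hyou1, the large Hsp70 relative of the ER, was higher by 1.25 in UVB and 1.22 in Active (edgeR adjusted p = 6.9e-05 and 4.0e-05), whereas Xbp1, a transcription factor of the unfolded protein response, was lower by -1.01 and -1.11 (adjusted p = 0.0022 and 8.8e-04). Pdia4 and Sdf2l1, named after their values were seen, were the other genes higher in Active than in Quiescent (0.61 and 0.79, adjusted p = 0.013 and 0.016). Ern1, a sensor of unfolded proteins, and Sel1l, a part of the ER degradation machinery, were higher in UVB than in Active (0.66 and 0.49, adjusted p = 0.015 and 0.0053). Of 13 mitochondrial chaperone partners and proteases, 3 were higher and 3 lower in UVB against Quiescent, 5 and 3 in Active against Quiescent, and 0 and 6 in UVB against Active, with medians of 0.05, 0.22 and -0.23. Trap1, the mitochondrial Hsp90, was higher by 0.43 in UVB and 0.56 in Active (adjusted p = 0.0042 and 6.8e-04), as were Timm44 and Lonp1. Clpp and Clpb were also higher in Active. Htra2 and Clpx were lower in both groups, Pam16 in UVB and Yme1l1 in Active. Of these, Clpb, Clpx and Yme1l1 were named after their values were seen.

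Of the 17 immediate early genes, 1 was higher and 4 lower in UVB against Quiescent, 1 and 8 in Active against Quiescent, and 2 and 0 in UVB against Active, with medians of -0.83, -1.34 and 0.74. The higher gene was Egr3 (2.95 in UVB and 2.46 in Active, edgeR adjusted p = 5.3e-04 and 8.6e-04). Jund was lower by -1.48 in UVB and -1.63 in Active against Quiescent (adjusted p = 8.6e-04 and 3.3e-04), as were Dusp1, Klf4 and, named after its values were seen, Ier2 in UVB. Fosb and Klf4 were higher in UVB than in Active by 1.89 and 1.19 (adjusted p = 0.025 and 0.029).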

How the data were processed

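RNA was measured in 9 libraries, whose groups and replicate numbers were taken from the labels. Poly(A) RNA was selected from total RNA and libraries were built with a directional kit, per the labels' protocols. The submitters' processing notes name cutadapt 1.8, TopHat2 2.0.13, Cuffdiff 2.2.1 and mm10. Annotation and strand handling were not given in the sources used here.

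Per the file headers, the deposited table holds the authors' estimated counts, unscaled fragments of each gene in each library, and the FPKM that they scaled between libraries. Of 210249 estimated counts, 1.08% were not whole to within 1e-06, and none of these belonged to a chaperone gene. Fragments of near-identical genes are shared out by the counting model, so Hspa1a and Hspa1b are uncertain, as are Hspd1 and Hspe1, which have 5 and 6 named pseudogenes. Without a stated strand setting, genes that share exons with one on the opposite strand are uncertain too, among the called members Dnaja4, Dnajb6, Dnajc1, Dnajc7, Dnajc19, Hspa12a and Hspe1, and by the annotation alone Dnajb9, Dnajb14, Dnajc24 and Hspa1a.

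Library totals ran from 21045070 to 35131778 fragments, and the coefficient of variation between replicates was 0.28. After rounding, the quasi-likelihood F test of edgeR 4.0.16 was run in R 4.3.3, two-sided, in 1 fit of the 9 libraries with TMM factors. The function filterByExpr left 15078 of 23361 genes. TMM factors spanned 0.660 to 0.748 for Quiescent libraries and 1.163 to 1.225 for the rest. The SE is the size of the log2 fold change divided by the square root of F. Alternatives were other scaling factors, DESeq2 1.42.0, limma 3.58.1 on log2(FPKM + 1) and log2(FPKM + 0.1), other filters, fewer groups, a replicate block and leaving out each library. The fit was tested on simulated data.

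The members, the gene lists and the rule for named genes were chosen with earlier results of these data known. That rule names 15 main chaperones in every comparison, up to 4 members per family and direction with the smallest adjusted p, and up to 3 genes per list. Further members called in a comparison were named after their values were seen. A replicate number marked no shared animal or day in the labels, and the correlation of same-numbered libraries ran from -0.171 to 0.231, so the numbers were not taken to pair them. Gene positions are from GENCODE M21 on GRCm38, and promoters from RefSeq on GRCm38.p6.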

Additional observations from a re-analysis of the deposited data

How the results depend on the processing

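The counts of chaperone genes called moved most with library size alone in place of TMM: 37 higher and 5 lower in UVB against Quiescent, and 39 and 5 in Active against Quiescent, as the median of all genes moved to 0.74 and 0.76. In UVB against Active, DESeq2 called 1 higher and 10 lower, and limma on log2(FPKM + 1) and the fit of the 2 groups alone called 1 higher each. Leaving out 1 library gave 8 to 12 higher and 8 to 19 lower in UVB against Quiescent, 12 to 17 and 12 to 14 in Active against Quiescent, and 0 to 1 and 2 to 8 in UVB against Active. With the replicate block, the counts were 9 and 15, 14 and 14, and 0 and 4, although the numbers were not taken to pair the libraries. The other settings kept each count within 1.5 times. With library size alone, the log2 fold change changed sign for 26 of the 65 tested members in UVB against Quiescent, 16 in Active against Quiescent and 1 in UVB against Active. Those that passed the threshold under either scaling, with Hsbp1 and Htra2 of the partner lists, were, for UVB, Dnaja1 0.66, Dnaja2 0.61, Dnaja3 0.52, Dnajb11 0.67, Dnajb12 0.48, Dnajb14 0.61, Dnajb2 0.66, Dnajb6 0.35, Dnajc10 0.64, Dnajc12 0.67, Dnajc14 0.71, Dnajc15 0.52, Dnajc18 0.32, Dnajc19 0.63, Dnajc21 0.23, Dnajc24 0.52, Dnajc3 0.19, Hsbp1 0.04, Hsp90ab1 0.67, Hspa5 0.66, Hspb11 0.21, Hspe1 0.28, Htra2 0.20, and for Active, Dnajb12 0.53, Dnajb14 0.13, Dnajb2 0.59, Dnajb6 0.34, Dnajc12 0.71, Dnajc13 0.51, Dnajc18 0.43, Dnajc4 0.088, Hspb11 0.40. Without Quiescent replicate 2, Hsph1 in Active against Quiescent turned to 0.82, and over all fits without 1 library it ran from -1.26 to 0.82. The cause of these changes was not tested, apart from the shift of the median. Depth limits the genes on few fragments, such as Hspb7, Hspb9 and Dnajb3.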
